A study of Mus musculus with 12 samples.

Results

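The 10 integrin subunit genes examined here were *Itgam*, *Itgax*, *Itgal*, *Itgb2*, *Itga4*, *Itga5*, *Itgav*, *Itgb1*, *Itgb5* and *Itgb7*. They were taken by gene symbol from a table of 12850 genes, and all 10 were listed and passed the filter on low values, which left 11885 genes for testing. RNA-seq had been done on peritoneal exudate cells (PECs), which were elicited by injecting mice with 2 ml of 4% thioglycollate, collected 3.5 days later and cultured. WT cells came from C57BL/6 mice. S513A cells came from *Zc3h12a* S513A/S513A mice, a germline knock-in on the same C57BL/6 background that replaces 1 serine of the RNase Regnase-1 by alanine in every cell type. Cells of each genotype were left unstimulated (0 hr) or given 100 ng/ml LPS, the bacterial ligand of Toll-like receptor 4, for 4 or 8 hr, with 2 libraries in each of the 6 groups and 12 libraries in all. The age and sex of the mice were not given in the sources used here, and nothing says that the 2 libraries of a group came from separate animals, so p values measure the spread between these libraries, which may be technical.

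Integrins are cell surface receptors made of an α and a β subunit, and they join the cell to extracellular matrix or to ligands on other cells. In macrophages the β2 subunit pairs with αL, αM or αX to form LFA-1, Mac-1 (complement receptor 3) and p150,95, which bind ICAMs, complement fragments and fibrinogen. The β1 and β7 subunits pair with α4 to bind VCAM-1 and MAdCAM-1, β1 pairs with α5 to bind fibronectin, and αv pairs with β1 or β5 in receptors for RGD-containing matrix proteins.

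The table held 9525979 to 12439960 reads per library on the listed genes, and the 10 integrins had between 385 and 53913 reads in each library, well above the floor of 3 reads. Values are given as log2 CPM, the log2 of counts per unit of library size as the authors scaled it, unless stated otherwise. All 10 macrophage markers examined were listed, with *Lyz2*, the lysozyme of myeloid cells, between 9006 and 20943 CPM and *Adgre1*, which encodes F4/80, between 1040 and 3054 CPM. Of 10 neutrophil markers, 4 were listed, with a summed level of 741 to 829 CPM at 0 hr, 563 to 776 CPM at 4 hr and 491 to 682 CPM at 8 hr, mostly from *Mmp8*, and the defining markers *Ly6g* and *Ngp* were not listed. Of 8 T cell markers 3 were listed, with a sum of 9.16 to 10.7 CPM at 0 hr and 1.95 to 3.39 CPM under LPS, and *Cd3e*, *Cd3d* and *Cd3g* were not listed. None of the 6 NK cell markers was listed. Of 6 eosinophil markers 2 were listed, mostly read from *Siglecf*. Their sum was 15.3 to 18.5 CPM at 0 hr, 8.02 to 10.0 CPM at 4 hr and 3.62 to 4.58 CPM at 8 hr. In such bulk samples, fewer cells of a type and less RNA per cell cannot be told apart. Replicates of WT at 4 hr, S513A at 4 hr and S513A at 8 hr lay further apart than those of the other groups, with an SD of the log2 difference over genes of 0.401, 0.287 and 0.341, against 0.162 to 0.216 in the other 3 groups. *Zc3h12a* itself was detected in every library of both genotypes, between 4.99 and 8.11 log2 CPM, and its level does not check the labels because the mutation changes 1 codon.

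The genes of the 3 α partners of β2 lie together on mouse chromosome 7 (GRCm38), *Itgal* at chr7:127296260-127335138, *Itgam* at chr7:128062640-128118491 and *Itgax* at chr7:128129547-128150657, all on the plus strand. The end of *Itgam* and the start of *Itgax* are 11055 bases apart, and the span from *Itgal* to *Itgax* is 854398 bases. *Itgb2* lies at chr10:77530252-77565708, *Itga4* at chr2:79255426-79333123, *Itgav* at chr2:83724397-83806916 and *Itgb1* at chr8:128685654-128733200. *Itgb5* lies at chr16:33829665-33949338, *Itgb7* at chr15:102215995-102231944 and *Itga5* at chr15:103344286-103366763. Exons of *Itga4* overlap those of *Cerkl* on the opposite strand, and the reads were counted without strand, but *Cerkl* had 5 to 14 reads per library against 954 to 3009 for *Itga4*. Exons of *Itgam* overlap those of *Gm49368* on the same strand, so reads shared by both cannot be told apart.

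RefSeq promoter sequences (GRCm38.p6) were matched for 8 of the 10 genes, and *Itgal* and *Itgb2* were not matched. The 250 bases before the annotated start are shown for *Itga5* and *Itgb5*, whose RNA moved furthest up and down under LPS, and for the neighbours *Itgam* and *Itgax*, which moved little. Capitals mark matches to GAGGAAG, a PU.1-type motif of the myeloid lineage factor, or to TGANTCA, an AP-1 motif, searched on both strands.
*Itga5*, chr15:103366792-103367041, minus strand: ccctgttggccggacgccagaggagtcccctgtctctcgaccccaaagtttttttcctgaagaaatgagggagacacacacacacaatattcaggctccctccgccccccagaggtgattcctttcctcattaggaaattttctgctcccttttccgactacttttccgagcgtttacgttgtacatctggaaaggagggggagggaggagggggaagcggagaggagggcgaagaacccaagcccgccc
*Itgb5*, chr16:33829415-33829664, plus strand: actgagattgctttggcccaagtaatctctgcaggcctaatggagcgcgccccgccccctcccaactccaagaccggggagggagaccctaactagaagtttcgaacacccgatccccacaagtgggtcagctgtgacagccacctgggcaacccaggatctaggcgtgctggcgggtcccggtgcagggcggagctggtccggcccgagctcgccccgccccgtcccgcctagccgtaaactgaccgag
*Itgam*, chr7:128062390-128062639, plus strand: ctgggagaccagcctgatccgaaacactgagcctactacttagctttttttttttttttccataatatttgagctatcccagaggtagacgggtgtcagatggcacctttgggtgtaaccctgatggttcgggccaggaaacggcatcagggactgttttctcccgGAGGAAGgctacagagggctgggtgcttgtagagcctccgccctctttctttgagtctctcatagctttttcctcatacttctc
*Itgax*, chr7:128129300-128129549, plus strand: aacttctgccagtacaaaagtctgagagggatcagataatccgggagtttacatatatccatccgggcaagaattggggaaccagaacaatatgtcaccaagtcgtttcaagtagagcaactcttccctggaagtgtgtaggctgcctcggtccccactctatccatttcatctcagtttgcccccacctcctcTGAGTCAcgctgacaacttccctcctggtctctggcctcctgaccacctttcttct

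The PU.1-type letters stood 84 bases before the start in *Itgam* and, on the opposite strand, 8 bases before the start in *Itgav*, which is not printed. They occurred in 10.6% of the 32851 promoter windows of the same length. The AP-1 letters stood 56 bases before the start in *Itgax* and in 6.75% of windows. The κB motif matched none of the 8 windows and 7.25% of all windows. A match is a description of the letters, and none of these windows was assayed for binding here.

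Compared per exon length, the β2 subunit gene *Itgb2* had the highest RNA level of the 10 at every time. Its level was 10.19 ± 0.10 log2 CPM per kb at 0 hr, 10.17 ± 0.15 at 4 hr and 10.18 ± 0.12 at 8 hr (SD, n = 4, both genotypes), above 99.7%, 99.6% and 99.7% of the 11275 tested genes with a known length. At 0 hr *Itgam* followed with 8.18 ± 0.16 log2 CPM per kb, then *Itgb1* with 7.55 ± 0.13 and *Itgax* with 7.45 ± 0.17 (SD, n = 4). The libraries of *Itgb1* and *Itgax* overlapped, so their order was not resolved. Next came *Itgb5* (5.93 ± 0.11), *Itgb7* (5.38 ± 0.08), *Itga5* (4.76 ± 0.19) and *Itgal* (4.53 ± 0.07), of which *Itga5* and *Itgal* overlapped. *Itgav* (3.55 ± 0.20) and *Itga4* (3.23 ± 0.13) were lowest and overlapped each other.

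**Figure D1:**
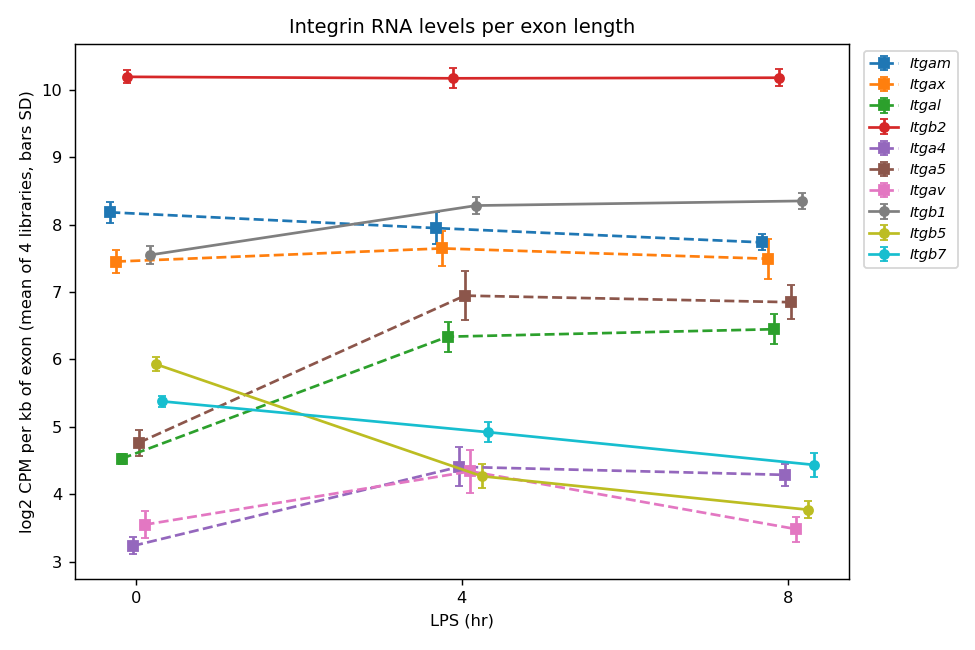
RNA level of each integrin subunit gene in log2 CPM per kb of exon (y axis) at 0, 4 and 8 hr of LPS (x axis, points shifted sideways for legibility), as the mean of 4 libraries of both genotypes with the SD as bars, with β subunits as circles and solid lines and α subunits as squares and dashed lines. *Itgb2* stays near 10.2 at the top, and *Itga5* and *Itgal* climb past *Itgb5* and *Itgb7*. *Itgb5* drops from the fifth place at 0 hr to the lowest mean at 4 hr, where its libraries overlap those of *Itgav* and *Itga4*.

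The order below *Itgb2* changed under LPS. At 8 hr *Itgb1* was second with 8.35 ± 0.12 log2 CPM per kb, and all of its libraries lay above those of *Itgam* (7.74 ± 0.12), which in turn overlapped *Itgax* (7.49 ± 0.30). *Itga5* reached 6.85 ± 0.26 and *Itgal* 6.45 ± 0.22, overlapping each other and lying above every library of *Itgb7* (4.44 ± 0.18). *Itga4* (4.29 ± 0.17), *Itgb5* (3.77 ± 0.12) and *Itgav* (3.48 ± 0.19) made up the low end, and the libraries of the last pair overlapped. With the longest transcript in place of all exons, the places of *Itgb1* and *Itgax* and those of *Itga5* and *Itgal* were exchanged at 0 hr, and no place changed at 4 or 8 hr.

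The same levels can be read as a composition of the 6 α subunits, by their levels per kb. *Itgam* made up 54.1% ± 1.8 of the summed α level at 0 hr, 35.6% ± 2.1 at 4 hr and 34.1% ± 4.1 at 8 hr (SD, n = 4). *Itgax* made up 32.6% ± 2.3, 28.9% ± 1.3 and 28.7% ± 2.4 at these times. *Itga5* went from 5.06% ± 0.24 to 17.8% ± 1.4 and 18.4% ± 1.6, and *Itgal* from 4.30% ± 0.32 to 11.7% ± 0.46 and 13.9% ± 0.56. *Itga4* and *Itgav* stayed at or below 3.55% in every library. Of the summed level of the 4 β subunits, *Itgb2* held 80.1% ± 1.6, 76.1% ± 2.9 and 76.2% ± 2.0, and *Itgb1* 12.9% ± 1.7, 20.7% ± 2.9 and 21.5% ± 2.1. *Itgb5* went from 4.17% ± 0.19 to 1.27% ± 0.12 and 0.896% ± 0.062, and *Itgb7* from 2.85% ± 0.19 to 2.00% ± 0.14 and 1.42% ± 0.09. These shares are descriptions, and a share falls when another subunit rises.

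LPS against 0 hr, averaged over both genotypes with 4 libraries against 4, asked which subunits respond to the stimulus. At 4 hr, 5 of the 10 integrins rose (*Itgal*, *Itga4*, *Itga5*, *Itgav* and *Itgb1*), 2 fell (*Itgb5* and *Itgb7*) and 3 did not pass the threshold (*Itgam*, *Itgax* and *Itgb2*) at an adjusted p of 0.05 by limma. Over all 11885 genes, 29.1% rose and 26.7% fell, so such calls were common. At 8 hr, 4 integrins rose (*Itgal*, *Itga4*, *Itga5* and *Itgb1*), against 24.5% of all genes, and 3 fell (*Itgam*, *Itgb5* and *Itgb7*), against 21.6%. In each comparison the 7 called integrins, and none of the others, had libraries that did not overlap between the times, as 49.1% of all genes had at 4 hr and 43.7% at 8 hr. The median log2 change of the 10 integrins was 0.46 at 4 hr and 0.01 at 8 hr, against 0.02 and 0.00 over all genes tested, and the median size of change regardless of sign was 0.76 and 0.87, against 0.42 and 0.33.

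**Figure D2:**
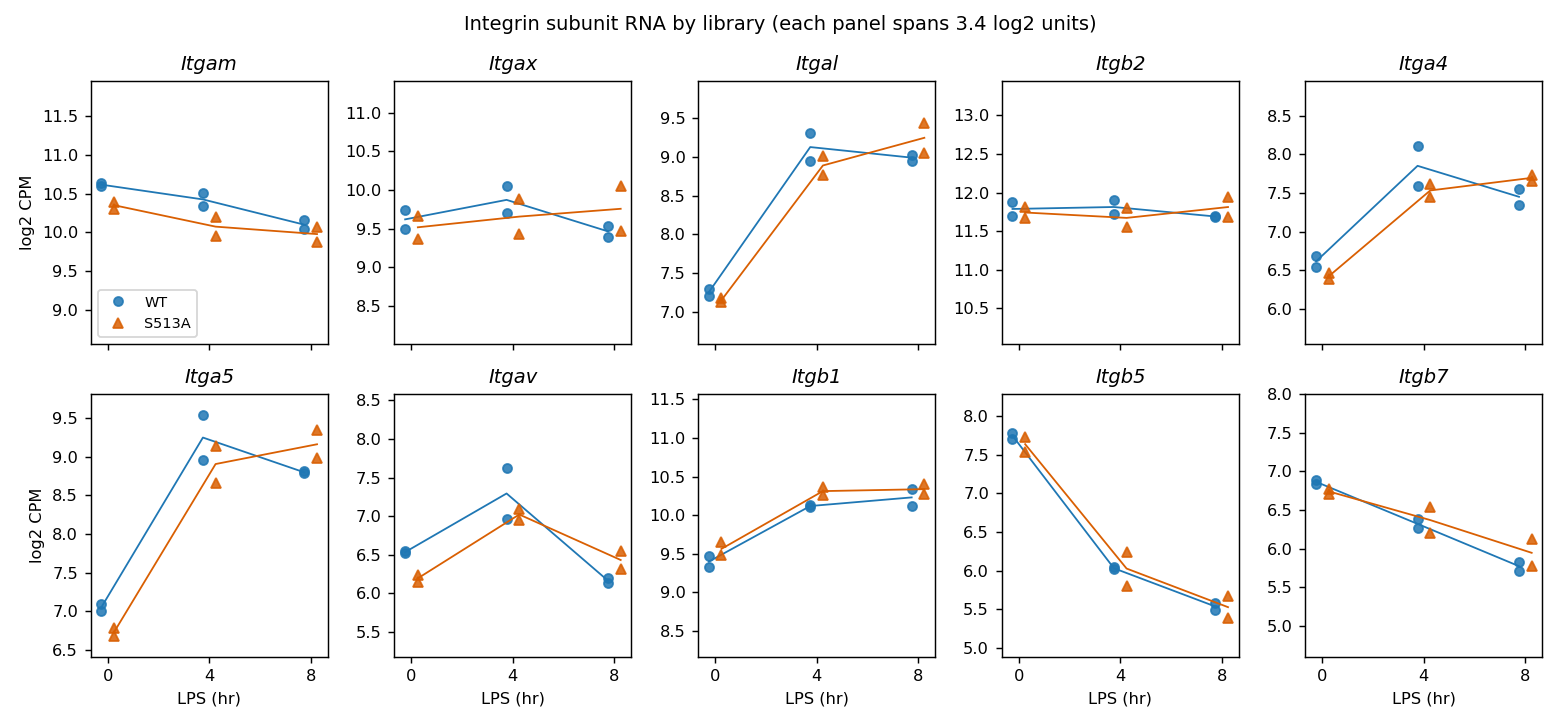
Level of each integrin in each of the 12 libraries in log2 CPM (y axis, the same span in each panel) at 0, 4 and 8 hr of LPS (x axis, genotypes shifted sideways), with WT as blue circles, S513A as orange triangles and lines through the mean of the 2 libraries of a group. *Itgal*, *Itga4* and *Itga5* stand higher at 4 and 8 hr than in any library at 0 hr, *Itgb5* stands lower, and *Itgav* is high at 4 hr alone.

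**Figure D3:**
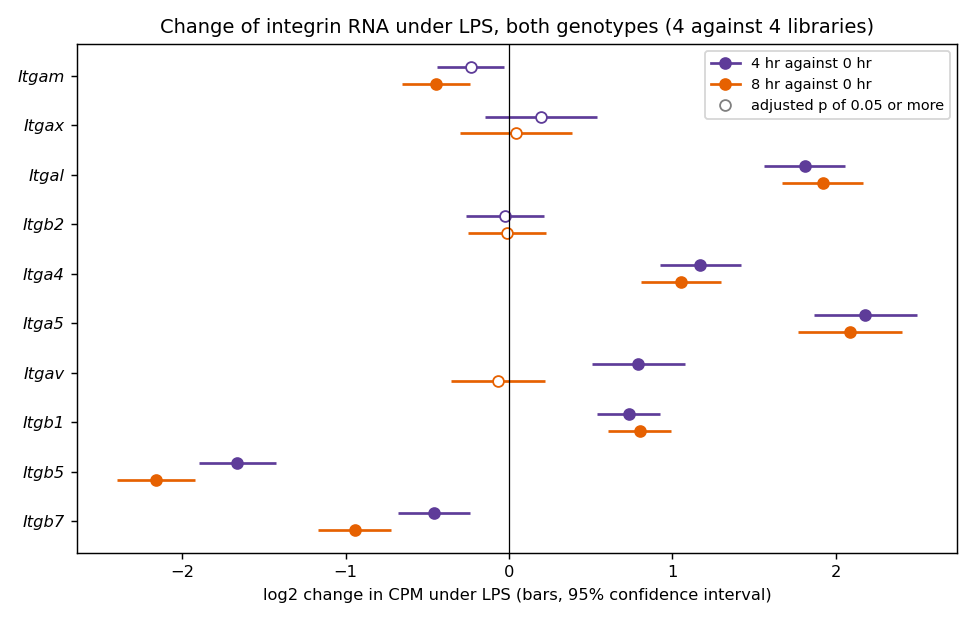
Change of each integrin under LPS on the log2 CPM scale (x axis) at 4 hr (purple) and 8 hr (orange) against 0 hr, averaged over both genotypes, with 95% confidence intervals from limma as bars and open circles where the adjusted p was 0.05 or more. *Itga5* lies furthest to the right at 2.18 and 2.09 and *Itgb5* furthest to the left at -1.66 and -2.16.

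Of the β2 family, *Itgal* moved most. *Itgal* encodes αL, which pairs with β2 to form LFA-1. In WT it measured 7.30 and 7.21 log2 CPM at 0 hr, 8.95 and 9.31 at 4 hr, then 9.03 and 8.95 at 8 hr. In S513A it measured 7.12 and 7.18 at 0 hr, 9.01 and 8.77 at 4 hr, then 9.45 and 9.05 at 8 hr. Every stimulated library was thus above every unstimulated one, in both genotypes. The rise was 3.51-fold at 4 hr (log2 change 1.81 ± 0.11, SE, adjusted p = 1.8e-07) and 3.79-fold at 8 hr (1.92 ± 0.11, adjusted p = 1.5e-07). *Itgal* is also expressed by lymphocytes, whose part in the rise was not tested. The summed T cell markers were lower under LPS than at 0 hr, as given above. That sum mainly followed 1 gene, *Cd28* (0.216 to 8.58 CPM over all libraries). *Lck* lay at 0.523 to 2.16 CPM and *Cd4* at 0.143 to 1.13 CPM. Of 6 B cell markers 4 were listed, with a sum of 3.44 to 7.00 CPM at 0 hr, 6.59 to 8.02 CPM at 4 hr and 4.23 to 8.87 CPM at 8 hr.

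*Itgam*, which encodes αM (CD11b), went the other way by a small amount. In WT it measured 10.64 and 10.60 log2 CPM at 0 hr, 10.34 and 10.51 at 4 hr, then 10.16 and 10.04 at 8 hr. In S513A the values were 10.39 and 10.31, then 10.20 and 9.95, then 10.07 and 9.88. The libraries at 4 hr overlapped those at 0 hr, whereas those at 8 hr were all lower. The log2 change was -0.23 ± 0.09 at 4 hr (adjusted p = 0.052) and -0.45 ± 0.09 at 8 hr (adjusted p = 0.0025), a 1.36-fold fall at 8 hr with a 95% interval of 1.18 to 1.57. The change at 4 hr lay close to the threshold and passed it in 10 of 26 alternative fits, with adjusted p values over all 26 from 0.00049 to 0.19. It passed with the replicate number as a block within genotype (adjusted p = 0.045) but not with the block over both genotypes (adjusted p = 0.058). Without WT replicate 2 or S513A replicate 1 at 4 hr it was -0.28 (adjusted p = 0.030) and -0.30 (adjusted p = 0.032), and without S513A replicate 2 at 4 hr it was -0.17 (adjusted p = 0.19). *Itgam* is also expressed by neutrophils, whose summed markers were lower at 8 hr (491 to 682 CPM) than at 0 hr (741 to 829 CPM). That sum was mostly *Mmp8* (329 to 725 CPM over all libraries). *S100a8* ranged from 20.2 to 106 CPM and *Csf3r* from 67.9 to 128 CPM, so the sum does not show how each marker moved. The part of neutrophils in the fall of *Itgam* was not tested.

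For *Itgax*, which encodes αX (CD11c), and *Itgb2*, which encodes the β2 subunit shared by αL, αM and αX, no change was called. *Itgax* ranged from 9.37 to 9.74 log2 CPM at 0 hr, 9.43 to 10.05 at 4 hr and 9.39 to 10.05 at 8 hr. Its log2 changes were 0.20 (95% interval -0.15 to 0.54) and 0.04 (-0.30 to 0.39). *Itgb2* ranged from 11.67 to 11.88 log2 CPM at 0 hr, 11.55 to 11.90 at 4 hr and 11.68 to 11.94 at 8 hr. Its log2 changes were -0.02 (95% interval -0.26 to 0.22) and -0.01 (-0.25 to 0.23), so that a change beyond about these bounds lay outside the interval. Quantile normalization, an alternative scaling, gave lower 4 hr values for these abundant RNAs, with -0.47 for *Itgb2* (adjusted p = 0.014), -0.64 for *Itgam* (adjusted p = 0.00049) and -0.23 for *Itgax* (adjusted p = 0.29).

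The fibronectin receptor subunit *Itga5* (α5) had the largest rise of the 10. In WT it measured 7.10 and 7.01 log2 CPM at 0 hr, 8.96 and 9.54 at 4 hr, then 8.79 and 8.81 at 8 hr. In S513A it measured 6.78 and 6.69, then 9.15 and 8.67, then 9.34 and 8.98. Unstimulated and stimulated libraries were separated by more than 1 log2 unit. The rise was 4.54-fold at 4 hr (2.18 ± 0.14, adjusted p = 3.1e-07) and 4.25-fold at 8 hr (2.09 ± 0.14, adjusted p = 5.7e-07), a size exceeded by 3.97% of all genes tested at 4 hr and 3.75% at 8 hr.

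Its partner *Itgb1*, the β1 subunit common to many matrix receptors, rose less. *Itgb1* measured 9.33 and 9.47 log2 CPM in WT and 9.48 and 9.65 in S513A at 0 hr. At 4 hr it measured 10.10 and 10.14 in WT and 10.26 and 10.37 in S513A, and at 8 hr 10.12 and 10.34 in WT and 10.27 and 10.40 in S513A. Every stimulated library was above every unstimulated one. The change was 1.66-fold at 4 hr (0.73 ± 0.09, adjusted p = 3.4e-05) and 1.74-fold at 8 hr (0.80 ± 0.09, adjusted p = 2.3e-05), and with quantile normalization it was 0.30 and 0.48 on the log2 scale, still past the threshold.

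*Itga4*, which encodes α4, rose 2.25-fold at 4 hr (1.17 ± 0.11, adjusted p = 5.8e-06) and 2.08-fold at 8 hr (1.05 ± 0.11, adjusted p = 1.9e-05). In WT it measured 6.55 and 6.69 log2 CPM at 0 hr, 7.59 and 8.11 at 4 hr, then 7.56 and 7.35 at 8 hr. In S513A it measured 6.39 and 6.46, then 7.62 and 7.45, then 7.73 and 7.66. Its highest value at 0 hr, 6.69, was below its lowest under LPS, 7.35. *Itgb7*, which encodes the other β partner of α4, fell instead. *Itgb7* measured 6.84 and 6.89 log2 CPM in WT and 6.77 and 6.71 in S513A at 0 hr. At 4 hr it measured 6.26 and 6.38 in WT and 6.54 and 6.20 in S513A, and at 8 hr 5.71 and 5.83 in WT and 6.12 and 5.77 in S513A. The libraries of the 3 times formed 3 steps that did not overlap. The fall was 1.37-fold at 4 hr (-0.46 ± 0.10, adjusted p = 0.0027) and 1.92-fold at 8 hr (-0.94 ± 0.10, adjusted p = 2.0e-05), and quantile normalization gave -0.71 at 4 hr. By genotype, the 4 hr change by limma was -0.54 in WT (adjusted p = 0.011) and -0.37 in S513A (adjusted p = 0.057). The part of other cell types in the fall of *Itgb7* was not tested.

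The αv group moved in different directions. *Itgb5*, which encodes β5, had the largest fall. In WT it measured 7.79 and 7.71 log2 CPM at 0 hr, 6.04 and 6.02 at 4 hr, then 5.58 and 5.49 at 8 hr. In S513A it measured 7.73 and 7.54, then 6.25 and 5.81, then 5.67 and 5.38. Each later time lay below the one before it without overlap. It was 3.17-fold lower at 4 hr (-1.66 ± 0.11, adjusted p = 2.7e-07) and 4.47-fold lower at 8 hr (-2.16 ± 0.11, adjusted p = 4.5e-08), and 1.54% of all genes tested had a lower value than this at 8 hr.

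*Itgav*, which encodes αv, rose and returned. In WT it measured 6.52 and 6.54 log2 CPM at 0 hr, 6.96 and 7.63 at 4 hr, then 6.20 and 6.13 at 8 hr. In S513A it measured 6.24 and 6.15, then 7.09 and 6.95, then 6.55 and 6.31. The libraries at 4 hr were above all others, and those at 0 and 8 hr overlapped. The rise at 4 hr was 1.73-fold (0.79 ± 0.13, adjusted p = 3.5e-04), and the log2 change at 8 hr was -0.07 (95% interval -0.35 to 0.22, adjusted p = 0.71).

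Between 4 and 8 hr, 3 integrins fell and none rose, against 12.8% of all genes falling and 12.8% rising. They were *Itgav* (log2 change -0.86 ± 0.13, adjusted p = 8.3e-04), *Itgb5* (-0.50 ± 0.11, adjusted p = 0.0066) and *Itgb7* (-0.49 ± 0.10, adjusted p = 0.0054). The other 7 had log2 changes from -0.21 for *Itgam* to 0.11 for *Itgal* and did not pass the threshold. When the lower library on the main axis of replicate differences was left out of each of the 3 widest replicate pairs, *Itgam*, *Itga4* and *Itga5* were called lower as well, making 6, with log2 changes of -0.27 for each, where 29.3% of all genes were called in either direction. With the higher library left out instead, the count was 3, with 33.7% of all genes called.

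Because the receptor needs both chains, the RNA ratio of α to β within each library was compared between times for 8 known pairs, with a two-sided exact permutation test of 4 libraries against 4 and adjustment over the 16 tests. The smallest p that this design allows is 0.0286, which gave an adjusted p of 0.042 for each ratio that passed. As every pass stood at this smallest p, whether a ratio passed depended on how many of the others also reached it. The ratio passed at 4 hr in 5 of 8 pairs and at 8 hr in 6 of 8. How often other pairs of genes would pass was not counted, and several of the 8 pairs share *Itgb2* or *Itgb1*. Of single genes, 49.1% did not overlap between 0 and 4 hr and 43.7% between 0 and 8 hr. The counts thus describe these pairs and do not set them apart from other genes.

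**Figure D4:**
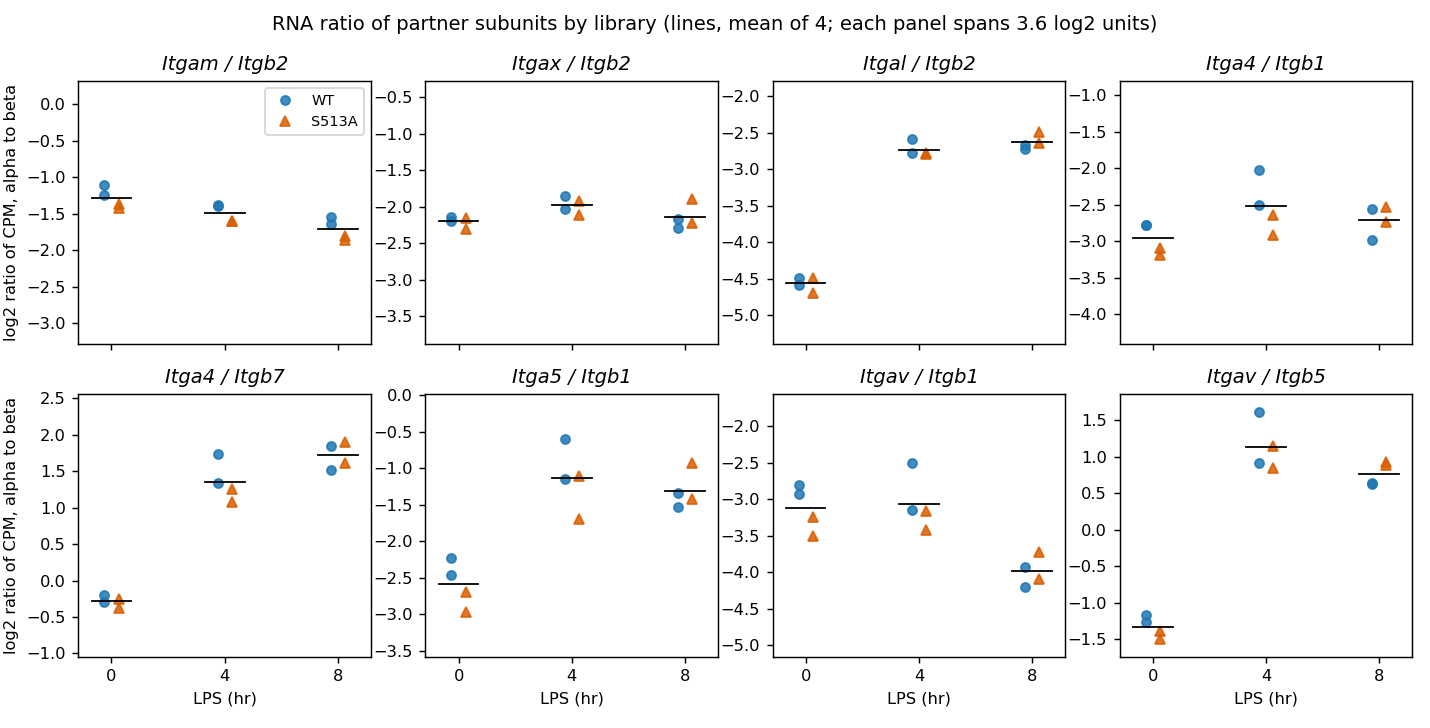
Log2 ratio of the CPM of the α gene to that of its β partner in each library (y axis, the same span in each panel) at 0, 4 and 8 hr of LPS (x axis), with WT as blue circles, S513A as orange triangles and black lines at the mean of the 4 libraries of a time. The ratios of *Itgav* to *Itgb5* and of *Itga4* to *Itgb7* cross from below 0 to above 0 between 0 and 4 hr.

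The largest shift was that of *Itgav* to *Itgb5*, the chains of the vitronectin receptor αvβ5. The log2 CPM ratio lay between -1.49 and -1.16 at 0 hr, between 0.85 and 1.61 at 4 hr and between 0.62 and 0.93 at 8 hr, a 5.48-fold and a 4.27-fold rise of the ratio (exact permutation p = 0.0286 for each). Per kb the mean log2 ratio was -2.38 at 0 hr and 0.07 at 4 hr, so that the chains went from unequal to nearly equal RNA levels. The 4 hr shift combined a rise of *Itgav* with a fall of *Itgb5*, while at 8 hr *Itgb5* alone of the 2 had passed the limma threshold.

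For α4, the ratio to *Itgb7* rose 3.10-fold at 4 hr and 3.99-fold at 8 hr (exact permutation p = 0.0286 for each). The log2 ratio lay between -0.38 and -0.20 at 0 hr, 1.08 and 1.73 at 4 hr, then 1.51 and 1.89 at 8 hr. By contrast the ratio of *Itga4* to *Itgb1* was 0.44 log2 units higher at 4 hr (exact permutation p = 0.0857, adjusted p = 0.11) and 0.25 higher at 8 hr (exact permutation p = 0.114, adjusted p = 0.13), and did not pass. With quantile normalization the 4 hr value was 0.58 and passed with an adjusted p of 0.042.

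The ratio of *Itga5* to *Itgb1*, the chains of the α5β1 fibronectin receptor, rose 2.73-fold at 4 hr and 2.44-fold at 8 hr (exact permutation p = 0.0286 for each). The ratio of *Itgav* to *Itgb1* was 0.06 log2 units higher at 4 hr (exact permutation p = 0.80) and 0.87 lower at 8 hr (exact permutation p = 0.0286). Within the β2 family, the ratio of *Itgal* to *Itgb2* rose 3.56-fold and 3.82-fold (exact permutation p = 0.0286 for each), as *Itgb2* itself hardly moved. The ratio of *Itgam* to *Itgb2* had a log2 shift of -0.21 at 4 hr (exact permutation p = 0.114) and of -0.43 at 8 hr (exact permutation p = 0.0286). The ratio of *Itgax* to *Itgb2* was 1.16-fold higher at 4 hr (exact permutation p = 0.0286), which did not pass with quantile normalization (adjusted p = 0.076), and at 8 hr the log2 shift was 0.06 (exact permutation p = 0.77). RNA ratios do not measure the receptors on the surface, which were not assayed here.

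The second question was whether the S513A mutation changed these genes. Averaged over the 3 times, none of the 10 integrins passed the threshold, against 0.0673% of all genes. None passed at 0 hr, where 0.0337% of all genes did, at 4 hr (0.0168%) or at 8 hr (0.0337%). The averaged log2 differences, S513A minus WT, ranged from -0.25 for *Itgam* to 0.15 for *Itgb1*, with SEs of 0.07 to 0.13 and adjusted p values of 0.56 to 0.99. At an unadjusted p of 0.05 limma had 1 of the 10 below in the average (*Itgam*), 0 at 0 hr, 1 at 4 hr (*Itgam*) and 0 at 8 hr, against 6.71%, 7.98%, 7.01% and 12.5% of all genes. The 95% intervals over the 10 genes reached from -0.77 to 0.44 at 0 hr, from -0.79 to 0.47 at 4 hr and from -0.41 to 0.81 at 8 hr with 2 libraries against 2.

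**Figure D5:**
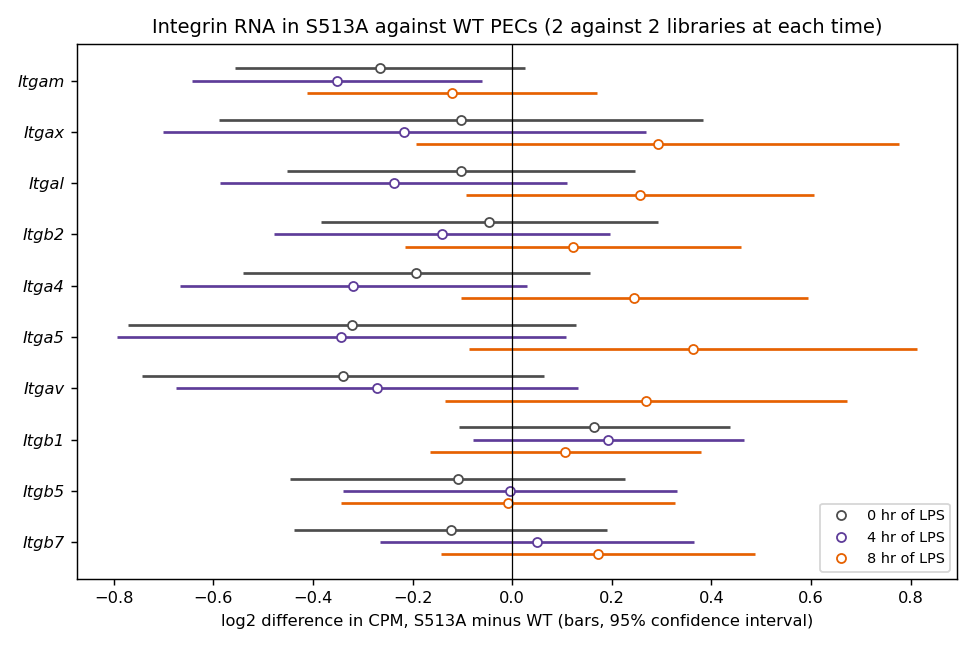
Difference in level of each integrin between S513A and WT PECs on the log2 CPM scale (x axis, S513A minus WT) at 0 hr (grey), 4 hr (purple) and 8 hr (orange), with 95% confidence intervals from limma as bars. None of the 30 differences passed the adjusted threshold, and all intervals except that of *Itgam* at 4 hr include 0.

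*Itgam* had the lowest averaged difference, -0.25 ± 0.08 (95% interval -0.41 to -0.08, adjusted p = 0.56). Both S513A libraries were below both WT ones at 0 hr and again at 4 hr, whereas the genotypes overlapped at 8 hr. Such a gap between genotypes was not particular to *Itgam*. Counting either direction, 7 of the 10 integrins had one at 0 hr, 2 at 4 hr and 4 at 8 hr. Its share over all genes is not given here. With the main axis of replicate differences as a model term, the averaged difference of *Itgam* was -0.21 with an adjusted p of 0.047. In that fit 89 genes passed in all (0.749%), against 8 in the main fit. The term was built from the same replicate differences that set the error, so fitting it takes part of that spread out of the error. At 0 hr *Itgav* was at -0.34 ± 0.18 and *Itga5* at -0.32 ± 0.20, with adjusted p values of 0.59 and 0.60 in the fit of all 12 libraries. Fitted on the 4 unstimulated libraries alone, whose replicates were closer than those of the 3 widest groups, these passed the threshold with adjusted p values of 0.045 and 0.049, as did 693 genes in all (5.83%), against 4 in the fit of all libraries.

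The genotype by LPS interaction asked whether the response itself differed. At 4 hr no integrin and no other gene passed (0% of genes), and at an unadjusted p of 0.05 limma had 0 integrins and 144 genes. The log2 changes at 4 hr in each genotype were close, for example 2.19 in WT and 2.17 in S513A for *Itga5*, 1.88 and 1.74 for *Itgal*, and -1.72 and -1.61 for *Itgb5*. At 8 hr again no integrin and no other gene passed (0% of genes), with 2 integrins and 2405 genes (20.2%) at an unadjusted p of 0.05. With voom weights, 0 integrins passed in each of the genotype and interaction contrasts. The 2 were *Itga5*, whose log2 change at 8 hr was 1.74 in WT and 2.43 in S513A (difference 0.69 ± 0.29, adjusted p = 0.23), and *Itgav*, at -0.37 in WT and 0.24 in S513A (difference 0.61 ± 0.26, adjusted p = 0.23). Across the 10 genes the interaction at 8 hr ranged from -0.06 for *Itgb1* to 0.69, with a median of 0.33 against 0.01 over all genes. The median size regardless of sign was 0.33, against 0.34 over all genes. The 10 values are not independent, as several of these genes had alike patterns over the libraries. S513A replicate 1 at 8 hr stood apart from replicate 2, at 9.34 against 8.98 for *Itga5* and 10.05 against 9.46 for *Itgax*. Leaving 1 library out of each of the 3 widest replicate pairs gave 2 called integrins when the higher ones were left out (*Itga5* at 0.51 and *Itgav* at 0.49, adjusted p = 0.040 and 0.042), where 7.21% of all genes passed, and 6 when the lower ones were, where 32.9% passed. Those fits no longer use the 3 widest pairs to estimate the error and also move the estimates, and *Itga5* was at 0.87 without the lower libraries.

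Further integrin subunits were examined as a list of 16, of which 9 were listed and 6 tested. At 4 hr 3 rose, 2 fell and 1 did not pass, with a median log2 change of 0.69 against 0.02 over all genes. At 8 hr the counts were again 3, 2 and 1. Over all genes 29.1% rose and 26.7% fell at 4 hr, and 24.5% rose and 21.6% fell at 8 hr. *Itgb8*, which encodes the TGF-β-activating chain β8, went from -0.33 to 0.34 log2 CPM at 0 hr to between 4.87 and 5.38 at 4 hr, a log2 change of 5.20 ± 0.14 (adjusted p = 3.5e-10), and was 3.83 ± 0.14 above 0 hr at 8 hr. *Itga9* rose by 1.96 ± 0.12 at 4 hr and 0.58 ± 0.12 at 8 hr, and *Itga1*, which encodes a collagen-binding chain, by 1.76 ± 0.13 and 1.23 ± 0.13. *Itgb3*, the other main β partner of αv, lay between 4.32 and 4.75 log2 CPM at 0 hr and between 1.45 and 2.45 at 4 hr, a log2 change of -2.48 ± 0.17 (adjusted p = 4.0e-07), and -2.58 ± 0.17 at 8 hr. *Itga6*, which encodes a laminin-binding chain, changed by -1.55 ± 0.11 and -1.63 ± 0.11. Of the 3 tested β chains of αv other than β1, *Itgb3* and *Itgb5* thus fell and *Itgb8* rose.

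Of 32 integrin ligands, 24 were listed and 21 tested. At 4 hr 7 rose, 3 fell and 11 did not pass (median log2 change 0.28 against 0.02 over all genes), where 29.1% of all genes rose and 26.7% fell. At 8 hr 7 rose, 4 fell and 10 did not pass (median 0.02 against 0.00), where 24.5% of all genes rose and 21.6% fell. *Icam1*, the main ligand of LFA-1 and a ligand of Mac-1, rose from 6.40 to 6.63 log2 CPM at 0 hr to between 9.61 and 9.88 at 4 hr, a log2 change of 3.22 ± 0.09 (adjusted p = 3.6e-10). *Vcam1*, the ligand of α4β1, rose by 3.88 ± 0.26 at 4 hr and 2.50 ± 0.26 at 8 hr, from between -0.12 and 1.04 log2 CPM at 0 hr. *F11r*, which encodes the LFA-1 ligand JAM-A, rose by 3.29 ± 0.28 at 4 hr and was 0.61 ± 0.28 from 0 hr at 8 hr (adjusted p = 0.10). *Cdh1*, the E-cadherin gene, had 0 to 19 reads per library and a log2 change of -2.42 ± 0.77 at 4 hr, too few reads for a fold to be given.

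Of 38 genes for integrin activation and adhesion adaptors, 37 were listed and 35 tested. At 4 hr 13 rose, 9 fell and 13 did not pass, where 29.1% of all genes rose and 26.7% fell. At 8 hr 20 rose, 7 fell and 8 did not pass, where 24.5% of all genes rose and 21.6% fell. The median log2 changes were 0.15 and 0.39, against 0.02 and 0.00 over all genes. The kinase genes *Src* and *Syk*, which act downstream of β2 integrins among other receptors, rose at 4 hr by 3.69 ± 0.12 and 1.66 ± 0.11. *Apbb1ip*, which encodes the Rap1 effector RIAM that brings talin to integrins, rose from between 6.31 and 6.73 log2 CPM at 0 hr to between 7.79 and 8.62 at 4 hr, and was 0.69 ± 0.16 above 0 hr at 8 hr. None of the genes tested in these 3 lists passed between S513A and WT averaged over times, where 0.0673% of all genes did.

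Over the 12 libraries, *Itgal* and *Itga5* had the most alike patterns among the 10 (Pearson r = 0.992), followed by *Itga4* and *Itga5* (0.984), while *Itgb1* and *Itgb5* were most opposed (-0.963). These correlations are descriptions across libraries that share the LPS time course. Among the other 11803 tested genes with a symbol, the gene most like *Itga5* was *Agrn* (0.999), the one most like *Itgal* was *Cpd* (0.998), that most like *Itgb5* was *Gna12* (0.996), that most like *Itgb1* was *Trim12c* (0.993) and that most like *Itga4* was *Myo10* (0.992). The nearest genes to *Itgav*, *Itgb7* and *Itgam* were *Mef2a* (0.986), *Aplp2* (0.981) and *Eef1a2* (0.965). For *Itgb2* and *Itgax*, which were not called under LPS, the nearest were *Ckap4* (0.937) and *Zbed4* (0.923).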

How the data were processed

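The authors aligned paired-end reads to mm10 with HISAT2, as unstranded, and counted them per gene with featureCounts 1.6.3. The gene annotation was not given in the sources used here. The authors deposited log2 CPM values, which fit log2 of (reads + 0.5) over an effective library size. Whole reads were recovered from the steps between values, with a largest departure of 0.00103 read. Library totals were 9525979 to 12439960 reads (median 11137241), and 3 reads, taken as the floor, are a log2 CPM of -2.04 to -1.30, for counting error only. Genes were tested if 2 or more libraries had 1 CPM or more.

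The deposited log2 values were fitted with limma 3.58.1 (R 4.3.3), with 1 mean for each of the 6 groups, 6 residual degrees of freedom, a prior following the mean level and Benjamini-Hochberg adjustment over the 11885 genes. The script was tested on simulated data. Exon lengths and positions came from GENCODE (GRCm38). Partner ratios used exact permutation tests in scipy 1.17.1. The text names all 10 integrins, the 4 genes of each other list with the largest called change at 4 hr, further called integrin subunits, and the gene most correlated with each integrin, except 1 gene that is not reported here. Members, lists and tests were chosen with earlier results of these data known. Alternatives were other filters, scalings, pseudocounts, priors, weights, blocks and each library left out.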

Additional observations from a re-analysis of the deposited data

How the results depend on the processing

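Every integrin called under LPS stayed past the threshold with the same sign in each of the 26 alternative fits at 4 hr, 8 hr and between them. The count of called integrins was 7 to 9 at 4 hr and 7 at 8 hr, and between 8 and 4 hr 3 in all but one fit. With each library left out in turn the counts were 7 to 8, 7 and 3, and 0 for each genotype and interaction contrast. The number of called integrins between genotypes rose from 0 to 1 averaged over times with the replicate factor, the main axis of replicate differences, as a term (*Itgam*), and to 2 at 0 hr on the libraries of that time alone. Fits without 3 libraries, 1 from each of the 3 widest replicate pairs, were chosen after seeing the data. They leave 1 library in each of those 3 groups. Without those low on the factor, integrins were called in each genotype contrast at a single time, as were many other genes. The difference of *Itga5* at 8 hr was then 0.54 and that of *Itgav* at 4 hr -0.54, against 0.36 and -0.27 in the main fit. At 0 hr *Itga5* stayed at -0.32 and *Itgav* at -0.34 without either set of 3 libraries. Over all genes, counts ranged over the alternatives from 3 to 89 averaged over times, 0 to 1247 at 0 hr, 0 to 355 at 4 hr, 0 to 3007 at 8 hr and 0 to 3906 in the interaction at 8 hr, and without S513A replicate 2 at 8 hr 651 genes but 0 integrins passed that interaction, so genotype calls depend on how the spread is estimated. Between 8 and 4 hr under LPS they ranged from 2021 (without WT replicate 1 at 8 hr) to 4004.

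Whether replicate numbers pair the libraries was not settled. Replicate differences correlated between groups from -0.412 to 0.417, and in 5 of 15 pairs of groups by more than 0.1. Within a genotype they correlated from -0.0984 to 0.0807 in WT and from 0.0867 to 0.417 in S513A. With the replicate number as a block, 7 integrins were called at 4 hr, 7 at 8 hr, 3 between 8 and 4 hr, and 0 in each genotype and interaction contrast, and with the block within genotype 8, 7 and 3 under LPS and 0 in the interactions. Partner ratios past the threshold numbered 5 at 4 hr and 6 at 8 hr with quantile normalization and with a further pseudocount of 1 CPM. Without 1 library the smallest possible p is 0.0571, so no such test could pass. With 2 libraries a group, no single outlying library can be identified.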
